A study of Mus musculus with 36 samples.

Results

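DNA methylation at Zfp608, Camk1d and Atxn1 was described through all 7 CpG clusters that overlap the body of one of these genes or the 10000 bp on either side of it, out of 18009 clusters in the whole data set. A CpG cluster is here a run of listed cytosines in CG dinucleotides at most 100 bp apart. The 3 genes were selected because they hold the 3 clusters with the smallest p-values for a difference between the Ikaros and Control series among 16734 clusters with values in all 36 samples. Series differences at these clusters are therefore a description, with adjusted p-values printed only to say on which side of the threshold a cluster lay, while the course over time and the relations between clusters within a series did not enter the selection. Zfp608 holds 2 of the clusters, Camk1d 1 and Atxn1 4, and all 7 had a value in every sample.

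The samples came from B3, a mouse pre-B cell line, profiled by reduced representation bisulfite sequencing (RRBS), in which CG-rich fragments cut by MspI are converted and sequenced. Ikaros cells had been transduced with an MSCV retrovirus encoding HA-Ikaros-ERt2-IRES-GFP, a fusion of haemagglutinin-tagged wild type Ikaros with a hormone-binding domain that keeps it out of the nucleus until the drug is added. Control cells carried the same vector with ERt2-IRES-GFP and no Ikaros, and both populations were sorted on GFP. Each series had 18 samples, 3 at each of 6 time points (0, 2, 6, 12, 18 and 24 h) of 0.5 µM 4-hydroxy-tamoxifen (4-OHT). The labels list the drug at every time, while the study's methods describe the 0 h cells as untreated. Those methods also say that the 0 h cells came from separate collections. A change from 0 h and that separate collection cannot be told apart. Each series derives from one transduced and sorted population of the line, so an effect of the construct and a difference between those populations cannot be told apart. The labels assign the samples to batch 1, batch 4, and batch 2 at 0 h or batch 3 at later times, and every batch held both series.

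Zfp608 encodes a large zinc finger protein that is a close relative of Zfp609. Camk1d encodes calcium/calmodulin-dependent protein kinase ID, a kinase switched on by calcium-bound calmodulin and by upstream CaM kinase kinases. Atxn1 encodes ataxin 1, which acts with the repressor Capicua (Cic), and its expanded form is known from a neurodegenerative disease. Methylation of CG dinucleotides around a transcription start usually goes with a silent promoter, whereas methylation of exons inside a gene body is common in active genes.

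The reference sequence of 4 stretches shows what was measured at Atxn1 and Camk1d, including where the series differed and where the means at neighbouring CGs were close. They were read from the RefSeq copy of GRCm38, the build of the data, on the minus strand from which both genes are transcribed, 5′ to 3′ with each CG in capitals. The intron 1 stretch, chr13:45964419-45964504, averaged 40.2% methylation in Ikaros and 18.0% in Control over 12 listed positions. The upstream stretch, chr13:45965396-45965611, averaged 72.9% and 61.2% over 27 positions. The next stretch further from the gene, chr13:45965681-45965741, averaged 55.9% and 55.5% over 6 positions. Only 1 of these positions had values in all samples, so a lack of difference is weakly measured there. The Camk1d stretch, chr2:5714866-5715105, lies before the annotated starts and averaged 97.2% and 97.1% over 41 positions. At such levels there is little room for a higher value in Ikaros.
Atxn1 intron 1: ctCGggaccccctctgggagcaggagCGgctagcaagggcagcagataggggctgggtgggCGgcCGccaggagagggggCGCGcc
Atxn1 upstream, with the difference: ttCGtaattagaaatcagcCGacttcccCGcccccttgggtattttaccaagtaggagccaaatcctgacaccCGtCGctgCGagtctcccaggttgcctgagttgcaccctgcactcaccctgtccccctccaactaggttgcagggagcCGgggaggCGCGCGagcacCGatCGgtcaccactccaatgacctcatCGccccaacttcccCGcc
Atxn1 upstream, without it: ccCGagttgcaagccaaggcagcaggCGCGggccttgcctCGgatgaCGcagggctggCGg
Camk1d upstream, without it: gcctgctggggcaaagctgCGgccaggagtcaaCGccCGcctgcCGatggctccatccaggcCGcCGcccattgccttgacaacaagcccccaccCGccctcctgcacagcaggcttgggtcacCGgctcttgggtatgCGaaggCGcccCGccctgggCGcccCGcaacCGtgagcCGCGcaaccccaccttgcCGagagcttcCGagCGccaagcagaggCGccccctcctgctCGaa

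The letters GGGAA, the core bound by Ikaros family proteins, were searched on both strands in the 300 bp around the centre of each cluster. They were present at 5 of the 7 clusters, and 59.5% of the 16734 clusters held them in a window of the same length. The Atxn1 intron 1 window and one Atxn1 exon window had no match, which says only that these letters were not in the window.

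Facts of the whole data set touch these loci in 3 ways. The values used here are smoothed methylation levels without read counts, which leaves the depth unknown and the spread between samples as the one error that can be given. The share of levels at exactly 0 or 1 ran from 26.9% to 59.1% in Ikaros samples (median 34.2%) and was at most 36.2% in Control samples (median 26.7%). The sample labelled Control 24 h replicate 2 stood away from the other Control samples and towards Ikaros at several of these clusters, and results that rest on it are given with and without it. Of the promoters of 15 lineage marker genes, 5 had a cluster, which limits the check of cell identity. The promoters of Pax5, Ebf1 and Vpreb1, genes of the B lineage, were at or below 1.03% in both series, and the clusters at Cebpa, a myeloid factor, were between 97.8% and 98.4%. The promoter cluster of Tcf7, a T lineage factor, was at 49.8% ± 4.16 in Ikaros and 44.0% ± 1.32 in Control (SD, n = 18 each), with an adjusted p of 1.87e-05 in the limma fit over all clusters. It moved in the same direction as the clusters described here, and its part in them was not tested.

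The leading cluster at Zfp608 lay in exon 2, a coding exon, from 54987739 to 54987993 on chromosome 18 of GRCm38, with 28 listed positions in 14 CG dinucleotides. It had the smallest p-value of all clusters in the main limma fit, on M-values with all samples. Ikaros samples ranged from 25.8% to 56.6% with a median of 40.2%. Control samples ranged from 10.1% to 31.0% with a median of 13.2%. Control 24 h replicate 2 gave the Control maximum, and the next highest Control sample was at 16.3%, below the lowest Ikaros sample. The means were 40.3% ± 6.73 and 14.3% ± 4.43 (SD, n = 18 each), a difference of 26.0 percentage points, or 27.0 points without Control 24 h replicate 2, when Control was at 13.3% ± 1.55 (n = 17). On the M-value scale, the log2 ratio of methylated to unmethylated level, the difference was 2.12 with a standard error of 0.14.

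Zfp608 had no cluster within 1000 bp of a transcription start, so the state of its promoter was not measured here. The exon 2 cluster began 2173 bp downstream of the start of the main transcript. The other Zfp608 cluster was in exon 5, from 54898865 to 54899165, and was highly methylated in both series. Ikaros samples ranged from 79.0% to 91.2% with a median of 84.5%, and Control samples from 78.2% to 90.9% with a median of 87.3%. Almost all samples of both series fell in the same range, and the difference of -1.75 points (limma adjusted p = 0.574) was in the opposite direction to that of exon 2. The shift at Zfp608 was measured near the start of the main transcript and was not detectable in the exon 5 cluster, 91001 bp from that start. The start of another annotated Zfp608 transcript lay closer to the exon 5 cluster, at 3303 bp.

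The Camk1d cluster spanned the annotated start of the gene, from 5714258 to 5715251 on chromosome 2, with 128 listed positions over exon 1, which is 5′ UTR in this stretch, and the sequence before it. Ikaros samples ranged from 91.7% to 96.1% with a median of 94.2%. Control samples ranged from 78.6% to 92.4% with a median of 82.5%. Again the highest Control value belonged to Control 24 h replicate 2, and the other 17 Control samples reached at most 85.9%, so that they did not overlap with Ikaros. The means were 94.0% ± 1.14 and 83.2% ± 3.00, a difference of 10.8 points, or 11.4 points without that sample, when Control was at 82.7% ± 1.98. The M-value difference was 1.22 with a standard error of 0.09. No other cluster lay within the gene or near it, and the closest clusters beyond the window, 130338 bp and 155104 bp away, differed by -0.02 and -0.58 points.

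At Atxn1 the clusters on both sides of the promoter had higher levels in Ikaros, and those far inside the gene did not pass the threshold. The intron 1 cluster, from 45963503 to 45964502 on chromosome 13, began 455 bp from the nearest annotated start and held 131 listed positions. Ikaros samples ranged from 32.4% to 47.7% with a median of 42.2%. Control samples ranged from 16.5% to 40.9% with a median of 21.3%. Control 24 h replicate 2 was the sample at 40.9%, in the middle of the Ikaros values, and the other Control samples reached at most 26.0%. The means were 41.2% ± 3.79 and 22.4% ± 5.48, a difference of 18.8 points, or 19.9 points without that sample, when Control was at 21.3% ± 3.02. The M-value difference was 1.43 with a standard error of 0.11.

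The Atxn1 upstream cluster, from 45965398 to 45966123, lay 390 bp before the outermost Atxn1 start and over 5033430I15Rik, a noncoding gene transcribed from the other strand whose annotated start was closer still, at 47 bp. Ikaros samples ranged from 64.5% to 78.5% with a median of 73.4%, and Control samples from 52.4% to 68.1% with a median of 60.3%. Both ranges overlapped, although 14 of 18 Ikaros samples were above every Control sample. The means were 72.4% ± 3.99 and 61.2% ± 4.15, a difference of 11.2 points, and the M-value difference was 0.90 with a standard error of 0.12. Here Control 24 h replicate 2, at 67.7%, was not the highest Control sample, and leaving it out moved the difference to 11.6 points. These values rest on the 28 of 46 positions with values in all samples, and with all listed positions the M-value difference was 0.48 (limma adjusted p = 0.00548).

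Both Atxn1 clusters far from the promoter lay in exon 7, the large exon with most of the coding sequence. The one on the start side, from 45567824 to 45568439, was almost fully methylated, at 96.3% ± 0.98 in Ikaros and 96.8% ± 0.64 in Control, and the adjusted p of limma was 0.512. The one on the end side, from 45566636 to 45567373, was at 88.5% ± 1.90 and 85.0% ± 3.15, with Ikaros samples from 85.3% to 92.6% and Control samples from 79.4% to 89.8%. The ranges overlapped, the highest Control sample being Control 24 h replicate 2, and the difference of 3.47 points did not pass the threshold (limma adjusted p = 0.0848). These values rest on 28 of 50 positions, and with all listed positions the M-value difference fell from 0.34 to 0.00965 (limma adjusted p = 0.98). It passed with levels in place of M-values, with medians over positions and in the 2 h to 24 h samples (limma adjusted p = 0.00802, 0.0467 and 0.00696). It also passed without Control 0 h replicate 1, Ikaros 0 h replicate 1 or Ikaros 18 h replicate 1 (limma adjusted p = 0.0338, 0.0468 and 0.0289).

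**Figure D1:**
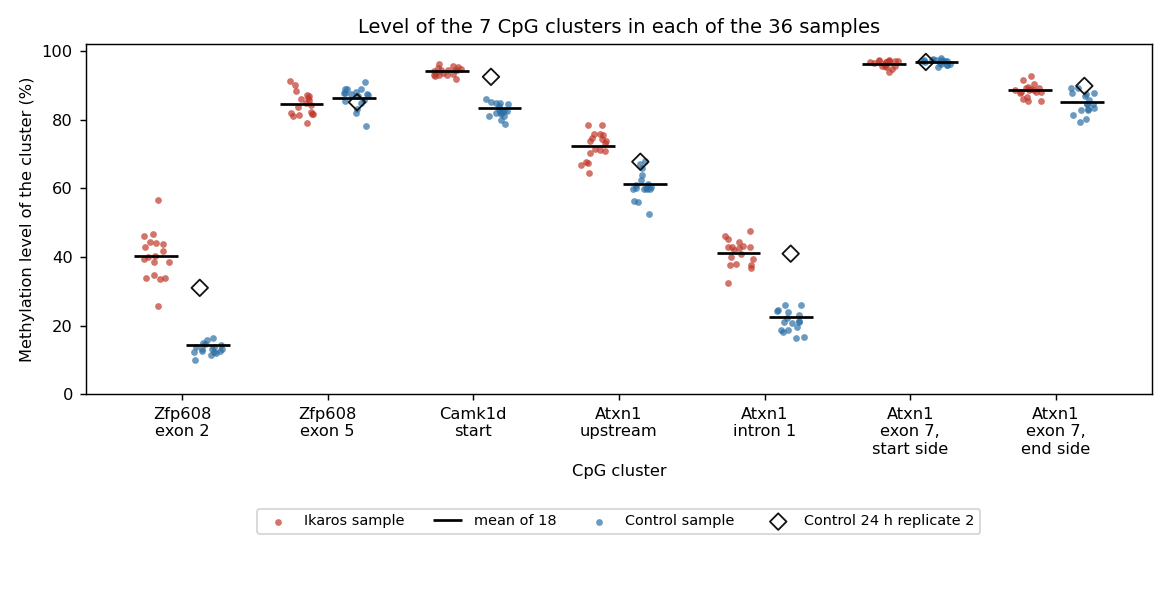
Methylation level of each of the 7 clusters in percent, 1 point per sample, with Ikaros in red, Control in blue, a bar at the mean of 18 and an open diamond for Control 24 h replicate 2. At Zfp608 exon 2, the Camk1d start and Atxn1 intron 1 the Control points lie below the Ikaros points apart from the diamond, while exon 5 of Zfp608 and exon 7 of Atxn1 overlap.

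Counted together, 4 of the 7 clusters passed the series threshold (limma, adjusted p under 0.05) and all 4 were more methylated in Ikaros. Over all clusters 4.84% passed in either direction and 3.71% passed with higher levels in Ikaros. Without Control 24 h replicate 2, the Ikaros and Control samples did not overlap at 3 of the 7 clusters, against 0.221% of all clusters. The 3 genes were chosen on this contrast, so nothing was read from these shares. The median M-value difference of the 7 clusters was 0.90, beside 0.03 over all clusters tested. Just below the 3 selected clusters in the order of p-values stood a cluster at Plekhg3 (89.3% ± 2.81 and 69.0% ± 6.26, SD, n = 18 each) and one at Sema5a (58.4% ± 2.96 and 44.2% ± 4.10), with differences of 20.3 and 14.2 points, and next a cluster at Nol4l with 28.9 points, more than at any of the 3 selected.

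The difference was present in every batch. Batches and pairs divide the same 36 samples on which the genes were chosen, so the values below describe the difference and do not replicate it. Their share over all clusters was not computed. Between an Ikaros and a Control sample of the same time and replicate number, Ikaros was higher in 18 of 18 pairs at Zfp608 exon 2, the Camk1d start, Atxn1 intron 1 and the Atxn1 upstream cluster. The smallest gaps were 12.6, 3.16, 5.14 and 1.98 points in that order. By batch, the difference at Zfp608 exon 2 lay between 24.3 and 29.6 points, at the Camk1d start between 8.22 and 12.5, at Atxn1 intron 1 between 14.1 and 21.2, and at the Atxn1 upstream cluster between 1.98 and 12.8. The value of 1.98 came from batch 2, which held 1 sample of each series. Without Control 24 h replicate 2 the batch 3 differences were 33.4, 9.90, 17.3 and 13.2 points.

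Along the clusters the difference had a different shape at each gene. Neighbouring positions are not independent, since the levels had been smoothed over 80 bp. At Zfp608 exon 2 all 28 positions were higher in Ikaros, by 21.3 to 31.4 points. Splitting the cluster where listed positions were over 50 bp apart gave 3 segments, at 32.0%, 45.5% and 37.3% in Ikaros from the promoter side inwards. The same segments were at 10.3%, 16.7% and 12.97% in Control, so that both series had their highest level in the middle segment.

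At Camk1d the difference was large around the start and small in the upstream part of the cluster. From 90 to 257 bp downstream of the start, in exon 1, the mean was 91.1% ± 2.00 in Ikaros and 61.7% ± 10.2 in Control. It was 94.4% and 63.4% at 30 to 33 bp downstream, and 91.0% and 76.4% in the segment from -219 to -23 bp, where negative positions are upstream of the start. In the segment from -736 to -279 bp, with 66 positions, the means were 96.7% ± 0.91 and 95.8% ± 1.14. The largest difference of a single position was 31.8 points, at 163 bp downstream of the start, where Ikaros was at 89.1% and Control at 57.3%. Of the 128 positions 62 differed by over 5 points, all of them higher in Ikaros, and the cluster mean thus averages over positions above and below that size. In Control the level was thus lower at the start than upstream of it, and in Ikaros the levels along the cluster were closer to each other.

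At Atxn1 intron 1 all 131 positions were higher in Ikaros, by 12.3 to 28.8 points. The main rises and falls of the profile lay in the same stretches in both series but differed in size. The difference was largest 693 bp downstream of the start, at 78.8% in Ikaros and 50.01% in Control. The 3 segments, from the promoter side inwards, were at 40.2% and 18.0%, 52.1% and 29.8%, and 30.4% and 15.8%. The segment nearest the promoter, whose sequence is printed above, varied most between samples, from 14.3% to 76.9% in Ikaros and from 0% to 35.6% in Control.

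In the Atxn1 upstream cluster the segments past the threshold were on the side facing the gene. Its segments at -483 to -422 bp and -633 to -553 bp from the start of the main transcript were at 84.3% and 58.7% in Ikaros and at 74.4% and 44.8% in Control. The following segment, at -763 to -707 bp, was at 58.5% ± 12.0 and 60.2% ± 17.8, with 1 position that had values in all samples. Beyond it each position was empty in some sample, and the series means over the values present were 90.3% and 91.9% at -1031 to -829 bp. At the outermost positions, -1147 to -1114 bp, they were 92.0% and 86.9%, with 11 samples empty and no test.

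**Figure D2:**
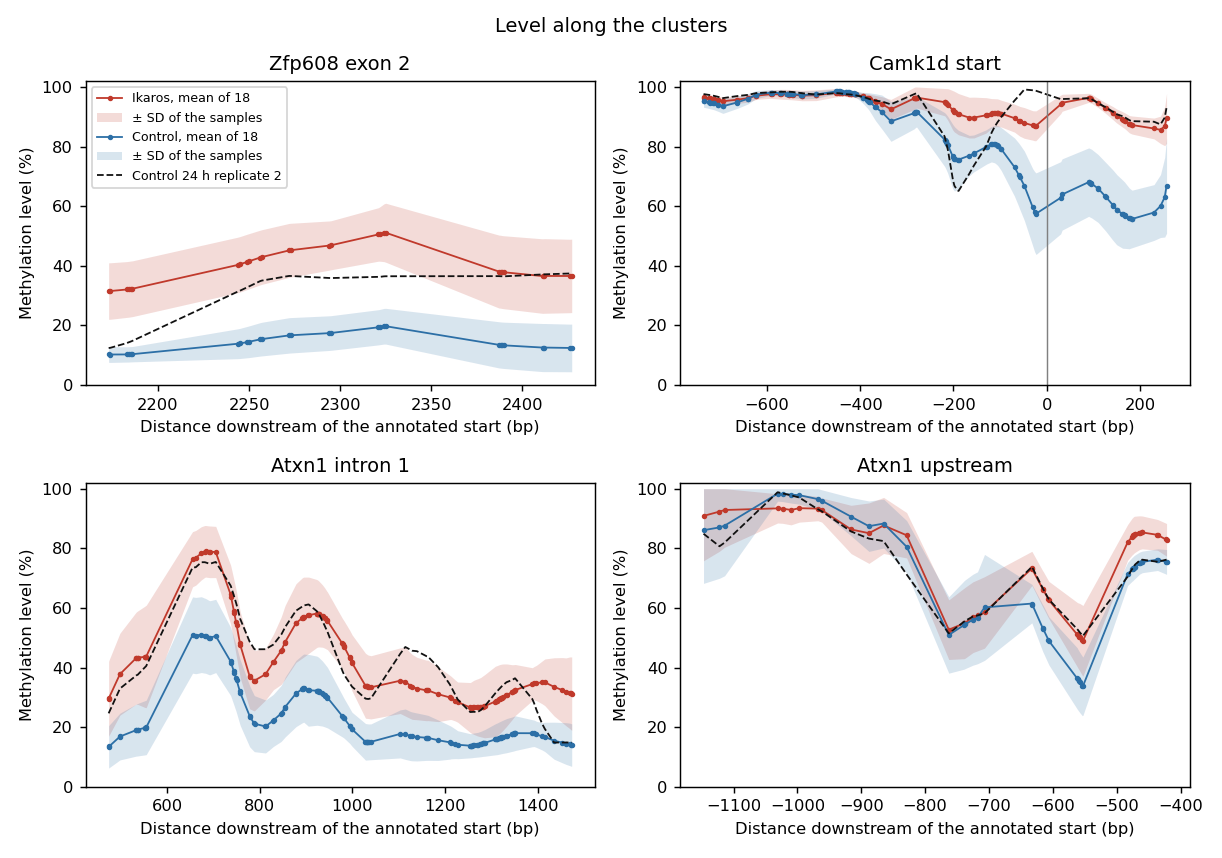
Methylation level in percent against distance in bp downstream of the annotated transcription start (negative values are upstream) at the 4 clusters that passed the series threshold, with the mean of 18 Ikaros (red) and 18 Control (blue) samples, a band of 1 SD, and Control 24 h replicate 2 as a dashed line. Red lies above blue along all of Zfp608 exon 2 and Atxn1 intron 1, while the lines come together upstream of the start at Camk1d (grey line) and cross away from the gene in the Atxn1 upstream cluster.

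Control 24 h replicate 2 did not differ from the other Control samples by one amount. It lay 65.6% of the way from the mean of the other Control samples to the Ikaros mean at Zfp608 exon 2, 86.1% at the Camk1d start, 98.5% at Atxn1 intron 1 and 59.6% at the Atxn1 upstream cluster. Within Zfp608 exon 2 the segments further into the exon were at 35.0% and 36.9%, and the segment nearest the promoter was at 13.8%, inside the Control range of 6.38% to 15.1%. Within the Camk1d cluster the exon 1 segments were at 91.9% and 96.0%, level with Ikaros, and the segment just upstream of the start was at 83.2%, a mean over opposite departures. There it was at 98.7% at -23 bp, above the Ikaros mean of 87.0%, and at 65.2% at -189 bp, below the mean of 76.3% of the other Control samples. In the Atxn1 upstream cluster the segment nearest the gene, at 74.7%, was near the Control mean of 74.4%, and the next segment, at 59.8%, was near the Ikaros mean of 58.7%. Its empty share (0.214% of positions) and its share of levels at exactly 0 or 1 (30.5%) lay within the ranges of the other samples, and the reason for its position was not tested.

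**Figure D3:**
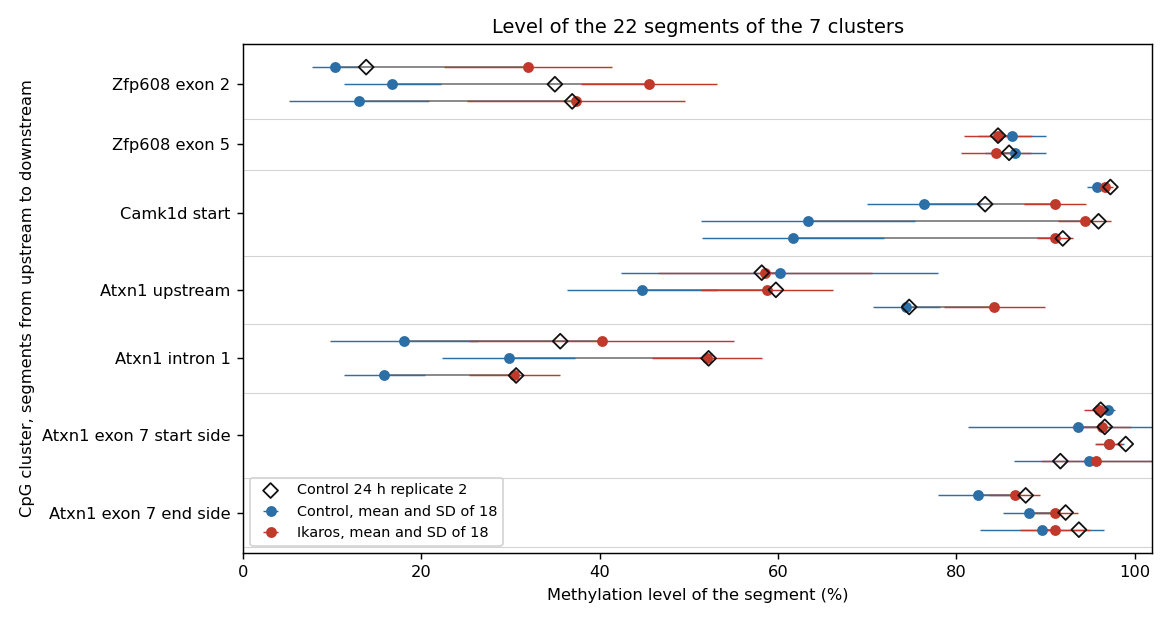
Methylation level in percent of the 22 segments of the 7 clusters that held a position with values in all samples, ordered from upstream to downstream within a cluster, as mean and SD of 18 Ikaros (red) and 18 Control (blue) samples, with a grey line between both means. The open diamonds of Control 24 h replicate 2 fall on the Ikaros side in some segments of a cluster and on the Control side in others.

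The difference between the series was present throughout the time course. At 0 h the Ikaros samples were already higher, by 25.5 points at Zfp608 exon 2, 12.1 at the Camk1d start, 16.9 at Atxn1 intron 1 and 6.35 at the Atxn1 upstream cluster (means of 3 per series). At 24 h the differences were 19.2, 8.18, 15.5 and 11.0 points, and 25, 11.1, 22.01 and 13.5 points without Control 24 h replicate 2. All 3 Ikaros samples were above all 3 Control samples at every time point at Zfp608 exon 2 and the Camk1d start. At Atxn1 intron 1 the exception was 24 h, and at the Atxn1 upstream cluster it was 0 h, each with 2 of 3.

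None of the 7 clusters passed the limma F test of change over the 6 time points in Ikaros or in Control, or the test for a different course between the series. Over all clusters the tests called few, with 0% of clusters called in Ikaros, 0.012% in Control and 0% for a different course. Unadjusted p was under 0.05 at 873, 808 and 857 of the 16734 clusters, near the share of 0.05 that tests without any change would give. The smallest unadjusted p of the 7 clusters were 0.0914 in Ikaros (Camk1d start, adjusted p = 0.969), 0.0743 in Control (Atxn1 exon 7, end side, adjusted p = 0.991) and 0.0318 for a different course (the same cluster, adjusted p = 0.908). At that Atxn1 cluster the difference between the series was -1.32, 4.38, 7.06, 5.42, 2.79 and 2.50 points at 0, 2, 6, 12, 18 and 24 h, and 4.49 points at 24 h without Control 24 h replicate 2. With all listed positions the smallest unadjusted p for a different course at any of the 7 clusters was 0.163 (limma adjusted p = 0.964).

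In Ikaros the time means covered 10.1 points at Zfp608 exon 2, from 35.5% at 2 h to 45.6% at 18 h, where the pooled SD within a time point was 6.67. They covered 1.74 points at the Camk1d start, from 93.0% at 0 h to 94.7% at 24 h, with an SD of 1.15. At Atxn1 intron 1 they covered 6.85 points, from 36.4% at 0 h to 43.3% at 24 h, with an SD of 3.53. Both lowest means, at Camk1d and Atxn1, were those of the separately collected 0 h cells. From 2 h on, the means at Atxn1 intron 1 lay between 40.8% and 43.3%. In Control the time means covered 7.49, 5.66 and 8.31 points at Zfp608 exon 2, the Camk1d start and Atxn1 intron 1. The SDs beside them were 4.29, 2.64 and 5.61. Without Control 24 h replicate 2 they covered 2.89, 4.17 and 3.66 points, beside SDs of 1.41, 1.69 and 3.29. Straight lines over the hours, with 0 h included and fitted after the data had been seen, did not pass over all clusters at any of the 7. In Ikaros the Camk1d start had a slope of 0.56 M units per 24 h (unadjusted p of 0.00156, limma adjusted p = 0.377) and the Atxn1 upstream cluster 0.51 (unadjusted p of 0.0493, limma adjusted p = 0.582). In Control the Camk1d start had 0.26, or -0.03 without Control 24 h replicate 2. Zfp608 exon 2 in Control had 0.60 (unadjusted p of 0.0252, limma adjusted p = 0.848), or 0.25 without that sample (unadjusted p of 0.119, limma adjusted p = 0.909).

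**Figure D4:**
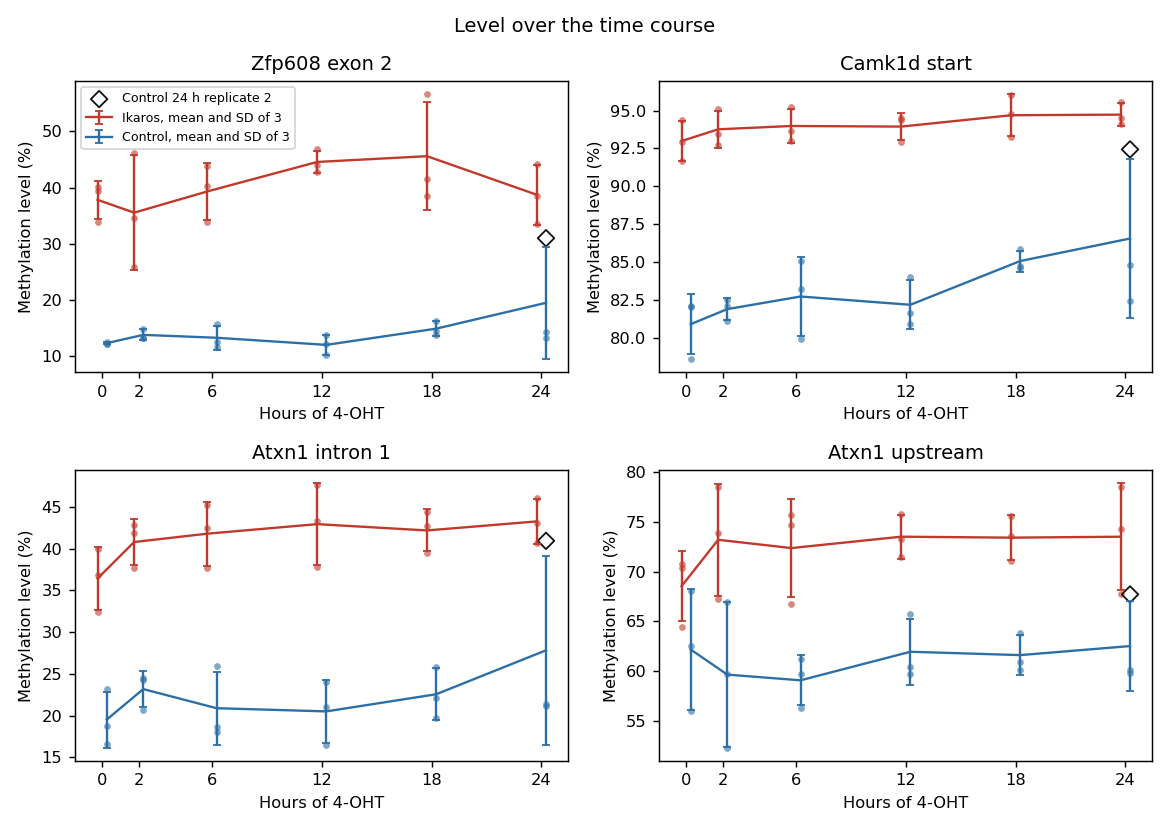
Methylation level in percent against hours of 4-OHT at 4 clusters, with 1 point per sample, lines through the mean of 3 and bars of 1 SD, Ikaros in red and Control in blue, and an open diamond for Control 24 h replicate 2. The vertical axes differ in range and do not start at 0, and the gap between the series is present from 0 h onwards in each panel.

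Within a series the 3 leading clusters were compared sample by sample, which gave 6 relations. P-values come from two-sided permutation tests, and adjusted values are over the 6 relations. The study's methods describe cells that were expanded together and then divided into flasks for the time points. Samples of one series and batch from 2 h on thus share a culture. The permutations treated all 18 samples as independent, so n = 18 overstates the number of independent cultures. In Ikaros none passed. Pearson's r was 0.411 between Zfp608 exon 2 and Atxn1 intron 1 (permutation p = 0.0888, adjusted p = 0.133, n = 18), with Spearman's rho 0.523 (permutation p = 0.028, adjusted p = 0.0841). It was 0.666 without the 2 samples farthest from the median at Zfp608. Within batches 1, 3 and 4, of 6, 5 and 6 samples, it was -0.515, 0.558 and 0.864, so it did not hold in batch 1. Batch 2 had 1 sample of each series and gave no value. The other Ikaros relations were -0.143 for Zfp608 and Camk1d (permutation p = 0.578, adjusted p = 0.626, rho -0.205 with p = 0.41, adjusted p = 0.492) and 0.124 for Camk1d and Atxn1 (permutation p = 0.626, adjusted p = 0.626, rho 0.0939 with p = 0.711, adjusted p = 0.711). Without the 2 farthest samples they were -0.178 and -0.00177, and within batches 1, 3 and 4 they were 0.386, -0.607 and 0.242 for the former and -0.551, -0.0434 and 0.414 for the latter, with no common sign.

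In Control, r was 0.797 between Zfp608 exon 2 and the Camk1d start (permutation p = 0.00507, adjusted p = 0.0152, n = 18), with rho 0.478 (p = 0.0473, adjusted p = 0.0945). It was 0.787 between Zfp608 exon 2 and Atxn1 intron 1 (permutation p = 0.0314, adjusted p = 0.0628), with rho 0.216 (p = 0.387, adjusted p = 0.492), and passed with the replicate number as a block (r = 0.906, adjusted permutation p = 0.00066). It was 0.823 between the Camk1d start and Atxn1 intron 1 (permutation p = 0.00099, adjusted p = 0.00594), with rho 0.641 (p = 0.00463, adjusted p = 0.0278). These calls changed with the samples left out. Without Control 24 h replicate 2, r fell to 0.339, -0.042 and 0.509 (permutation p = 0.182, 0.873 and 0.0381, n = 17), with adjusted p = 0.364, 0.873 and 0.228, and rho was 0.38, 0.0686 and 0.574. Without all of replicate 2, which also removes that sample, r for the first pair was 0.785 and still passed (permutation adjusted p = 0.0167, n = 12), while the last pair was at 0.363 (adjusted p = 0.409). Without the 2 farthest samples r was 0.516, 0.0987 and 0.475. Within batches 1 and 4, which do not hold that sample, r was 0.931 and 0.736 for the first pair, 0.734 and 0.415 for the second, and 0.536 and 0.139 for the last. Within batch 3, which holds it, r was 0.945, 0.987 and 0.984.

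Across all 36 samples the cluster whose level most resembled each of the 3 was the same, a cluster over the start of Ephb6, an Eph receptor gene, on chromosome 6. Its Pearson r was 0.921 with Zfp608 exon 2, 0.963 with the Camk1d start and 0.943 with Atxn1 intron 1. It was at 74.1% ± 4.39 in Ikaros and 41.7% ± 9.44 in Control (SD, n = 18 each), and Control 24 h replicate 2 was at 71.0%. Next came clusters at Rasd1 (0.912) and 12448 bp from D630033O11Rik (0.902) for Zfp608, at Sema5a (0.941) and 2339 bp from Gm44710 (0.934) for Camk1d, and at Plekhg3 (0.916) and again near Gm44710 (0.915) for Atxn1. The points share the difference between the series, on which the 3 clusters were chosen, and the correlations are given without a test.

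Genes related by function or descent to the 3 were listed without regard to their methylation, though with earlier results of these data known. The genes reported here were Zfp609, the CaM kinases Camk1, Camk1g, Pnck and Camk4, the upstream kinases Camkk1 and Camkk2, Calm2 and Calm3, which encode calmodulin, the Atxn1 relative Atxn1l and the Atxn1 partner Cic. Of these 11 genes 8 had a cluster within 1000 bp of a transcription start, 13 clusters in all, and Camk1, Camk1g and Atxn1l had none. The series difference passed at 3 of the 13 clusters, all higher in Ikaros, beside the 4.84% of all clusters given above. The median M-value difference of the 13 was 0.05, beside 0.03 over all clusters.

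The clearest of them was Camk4, whose kinase is activated by calmodulin and CaM kinase kinases like that of Camk1d. Its promoter cluster ranged from 53.5% to 76.2% in Ikaros with a median of 63.2% and from 36.1% to 53.2% in Control with a median of 47.2%. No sample of either series entered the range of the other, and this includes Control 24 h replicate 2, which at 51.3% lay within the Control values. The share of all clusters without overlap was computed only with that sample left out, and was then 0.221%. The difference was 17.5 points (limma adjusted p = 2.24e-08). Camkk1 was at 4.04% ± 0.84 and 2.93% ± 0.73 (adjusted p = 0.0126), and the series overlapped. It no longer passed without replicate 1 (adjusted p = 0.166) or replicate 3 (0.228), with medians over positions (0.834) or with all listed positions (0.207). One of the Zfp609 clusters was at 3.95% ± 2.01 and 2.07% ± 0.85 (adjusted p = 0.0495), and an adjusted p of 0.0591 with the replicate number as a block. That call held in 8 of the 36 fits that left out 1 sample each. Of the remaining 10 clusters, that of Pnck, an X-linked gene, was at 92.5% and 92.6%, and those of Camkk2, Calm2, Calm3, Cic and the other Zfp609 cluster were below 1.11% in both series.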

How the data were processed

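RRBS was analysed in 36 samples of the B3 line. According to the study's methods and the labels, the authors aligned trimmed reads with Bismark 0.10.1 against GRCm38, formed CpG clusters and smoothed the levels with BiSeq over 80 bp, with replicates kept apart. The authors deposited each level as a fraction from 0 to 1, and M-values on a log2 scale from levels limited to 0.01 to 0.99. The tables used here hold no coverage, so no counting error is given.

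Levels were summarised in Python 3.11.15 (pandas 2.3.3, scipy 1.17.1). Positions at most 100 bp apart formed clusters, and a cluster's value was the mean over its positions with values in all samples. Genes and exons came from GENCODE M21. All 16734 clusters were fitted in R 4.3.3 with limma 3.58.1 (lmFit, eBayes) on M-values. The series difference was fitted with time as a factor, and time with F tests. Benjamini-Hochberg adjustment covered all clusters at 0.05. The fits were tested on simulated data. Correlations used 100000 two-sided permutations.

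The members and gene lists were chosen with earlier results of these data known, and 1 further gene of the related list is not reported here and enters none of its counts. Full values are given for the leading cluster of each gene, clusters within 1000 bp of a start and clusters past the series threshold. The same labelled batch links the samples of both series with one time and replicate number. Their deviations from the condition means correlated from -0.0442 to 0.0219 over 18 pairs (median -0.00589), and the fit without a block was kept. P-values measure only the spread between these samples, which include flasks divided from one culture. The alternatives were levels for M-values, replicate or batch as a block, all listed positions, averaged strands, medians, a 50 bp gap, later times, covariates of empty and 0 or 1 shares, and samples left out.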

Additional observations from a re-analysis of the deposited data

How the results depend on the processing

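The series differences at Zfp608 exon 2, the Camk1d start, Atxn1 intron 1 and the Atxn1 upstream cluster kept their direction and passed in each of the 47 alternatives run for them. With any 1 sample or replicate number left out they ranged over 2.00 to 2.21, 1.15 to 1.35, 1.33 to 1.61 and 0.83 to 0.97 M units. The genes were chosen on this contrast in the same samples, so passing again is a description and no separate test. With all listed positions the upstream difference fell from 0.90 to 0.48 and that of the end side of Atxn1 exon 7 from 0.34 to 0.00965. With the covariates the difference of the start side of Atxn1 exon 7 turned to 0.00418. The end side passed in 6 of its 47 alternatives. Over all clusters, 810 passed, against 335 with the covariates and 399, 543 and 368 without replicate 1, 2 or 3, and 1228 of 32576 clusters at a 50 bp gap. In the time tests no member passed in any alternative run. The replicate block left the called members at 4 and 0, and took the related promoters from 3 to 2. Those numbered 1 with medians over positions, and from 1 to 3 with samples left out (Camk4 alone without replicate 1 or 3).

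The correlations were less stable. In Control, Zfp608 with Camk1d no longer passed with M-values (0.705), without replicate 1 or 3, without the 24 h samples (0.313) or without Control 24 h replicate 2 (0.339) but passed without all of replicate 2 (0.785), and without a replicate number or that sample or the 24 h samples r ran from 0.313 to 0.857. Camk1d with Atxn1 no longer passed with M-values (0.685), without replicate 1 or 2, without 24 h (0.529) or without that sample (0.509), with a range of 0.363 to 0.893. Zfp608 with Atxn1 passed with levels centred within replicate number as a replicate block (0.906, adjusted p = 0.00066) and turned to -0.0428 without 24 h and -0.042 without that sample, the range being -0.0428 to 0.842. No other call changed with the replicate block. In Ikaros, Zfp608 with Camk1d ranged from -0.241 to 0.301, and Camk1d with Atxn1 from -0.112 to 0.237, turning to -0.004 without 24 h and to -0.112 without replicate 3. The cause of these changes was not tested. The unknown depth limits all levels, including those of single positions.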
